A study of Homo sapiens with 8 samples.

Results

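Ribosomal protein genes encode the proteins of the small subunit (RPS genes and RPSA) and of the large subunit (RPL genes and RPLP0, RPLP1 and RPLP2) of the cytoplasmic ribosome. The loci described here are the deposited chromatin accessibility peaks that overlap such a gene or the 30 kb on each side of it. They were found by gene symbol among the protein-coding genes of the RefSeq GRCh38.p14 gene table, leaving out RPS6K kinases and copies such as RPL7L1. The symbols gave 87 genes, 51 of the large and 36 of the small subunit, on 22 chromosomes, of which 12 genes lie on chromosome 19. The count includes 3 read-through genes (RPL17-C18orf32, RPL36A-HNRNPH2 and RPS10-NUDT3) and RPS19BP1, which encodes a binding partner of RPS19 and not a ribosomal protein. RPL3 was not analysed here. In all, 615 of the 129536 peaks in the table belonged to these loci: 121 within 1 kb of a gene end, 39 inside a gene and 455 in the flanks.

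The assay was Omni-ATAC-seq on HEK293, an established human embryonic kidney line: nuclei are treated with a transposase that cuts accessible DNA and attaches adapters to it. According to the labels, vehicle-treated cells gave 4 libraries, and a 1 h exposure to sorbitol at 0.2 M, which raises the osmolarity outside the cell, preceded the other 4. The count columns are named 0 h for vehicle and 1 h for sorbitol. Whether vehicle cells were kept for the same time is not given, so a difference in time or handling cannot be told apart from sorbitol. The genotype field of all 8 libraries is eGFP-YAP, while the titles name only HEK293; the promoter behind the tagged YAP and the number of clones are not given in the sources used here. The series description adds that cells were starved of serum before sorbitol. Nothing in the labels says whether the 4 libraries of a group came from separate cultures, so p-values measure the spread between these libraries, which may be technical. In bulk chromatin, fewer cells with an open site and a less open site in each cell cannot be told apart.

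Ribosomal protein genes are among the most strongly transcribed genes of growing cells, usually short, and often carry small nucleolar RNA (snoRNA) genes in their introns; snoRNAs guide chemical modification of ribosomal RNA. Their transcripts typically begin with a C followed by an unbroken run of C and T, the 5′ terminal oligopyrimidine (TOP) motif, through which the mTOR pathway sets their translation. The median length of the 87 genes was 5035 bp, and 29 of them held 59 snoRNA genes. Of the 87 genes, 84 had a peak within 1 kb of an end. The exceptions were RPL10L, a retrotransposed copy of RPL10, and RPS4Y1 and RPS4Y2 on the Y chromosome.

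RefSeq promoter sequences were listed for 68 of the 87 genes and give the strand of each; genes without one include RPL23, RPL23A, RPL30, RPL37, RPL39L, RPL3L, RPL5, RPL7, RPL8, RPS10-NUDT3, RPS15A, RPS19BP1, RPS2 and RPS20. The sequences below are GRCh38.p14, read 5′ to 3′ on the gene's strand, from 140 bases before the first listed start to 20 bases from it. They are shown because each lies under a peak described below: 3 peaks that fell (RPL18, RPL28, RPS26), 3 that rose (RPL34, RPL24, RPL31) and a strong one that was not called (RPL39). Capitals mark the C/T run that holds the start and any CCGGAAG, the core site of ETS factors, on either strand.
RPL18, chr19:48619159-48619318, minus strand: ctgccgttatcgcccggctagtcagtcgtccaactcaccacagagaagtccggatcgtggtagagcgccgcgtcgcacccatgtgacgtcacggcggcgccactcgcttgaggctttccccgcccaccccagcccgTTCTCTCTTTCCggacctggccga
RPL28, chr19:55385792-55385951, plus strand: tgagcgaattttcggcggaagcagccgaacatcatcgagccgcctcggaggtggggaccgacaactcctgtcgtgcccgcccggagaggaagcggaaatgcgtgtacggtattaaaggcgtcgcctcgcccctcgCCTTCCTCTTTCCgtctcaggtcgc
RPS26, chr12:56041778-56041937, plus strand: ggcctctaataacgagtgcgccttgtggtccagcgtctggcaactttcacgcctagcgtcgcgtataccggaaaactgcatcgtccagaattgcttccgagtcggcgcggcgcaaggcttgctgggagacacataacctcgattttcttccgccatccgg
RPL34, chr4:108620436-108620595, plus strand: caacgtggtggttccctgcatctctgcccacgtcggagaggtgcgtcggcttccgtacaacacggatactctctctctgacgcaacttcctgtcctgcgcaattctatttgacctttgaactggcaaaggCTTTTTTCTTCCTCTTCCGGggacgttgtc
RPL24, chr3:101686699-101686858, minus strand: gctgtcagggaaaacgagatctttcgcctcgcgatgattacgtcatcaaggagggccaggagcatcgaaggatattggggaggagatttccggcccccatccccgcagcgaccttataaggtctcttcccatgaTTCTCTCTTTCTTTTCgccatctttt
RPL31, chr2:101002149-101002308, plus strand: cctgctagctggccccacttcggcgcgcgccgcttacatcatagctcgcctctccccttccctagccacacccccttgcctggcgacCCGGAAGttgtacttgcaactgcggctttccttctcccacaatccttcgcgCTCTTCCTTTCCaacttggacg
RPL39, chrX:119791611-119791770, minus strand: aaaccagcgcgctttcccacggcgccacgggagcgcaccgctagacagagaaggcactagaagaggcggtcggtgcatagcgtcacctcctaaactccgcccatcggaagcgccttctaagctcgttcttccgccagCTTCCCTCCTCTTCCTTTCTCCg

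The C/T run that holds the start was 12 bases long at RPL18, 13 at RPL28, 18 at RPL34, 16 at RPL24, 12 at RPL31 and 22 at RPL39. At RPS26 the first listed start lay in no such run. Genes whose peak fell and genes whose peak rose both carry the run. Over the 66 distinct ribosomal protein promoters, of 300 bases each, 45 (68.2%) had a run of at least 5 bases over the start, against 8.07% of all 15843 protein-coding promoters of that length, and 47 (71.2%) had C as the first base, against 11.3%.

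Libraries held 11522266 to 19831471 counts in peaks. Values are CPM, counts per 1e6 library counts, after edgeR's TMM scaling, whose factors ran from 0.954 to 1.042. Changes are log2 fold changes of sorbitol over vehicle from edgeR's quasi-likelihood test, and "called" means a Benjamini-Hochberg adjusted p under 0.05 over all 129487 tested peaks. All 615 peaks of these loci passed the filter on low counts. Among markers of the cell line, CDH2 and VIM had peaks over their starts with means of 124 and 95.4 CPM, and 5 of 6 HEK293 markers had a gene-end peak. PAX2 had none. Of 7 markers of other cell types, 4 had a gene-end peak but none over a start, and ALB, CD3E and HBB had none.

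After sorbitol, accessibility fell at more gene ends of these loci than it rose, with smaller changes over the starts than at the other end. Of the 121 gene-end peaks, 65 were called lower, 9 were called higher and 47 were not called, with a median log2 fold change of -0.30 and a range from -1.43 to 0.65. Over all tested peaks, 13.1% were called lower and 16.0% higher, with a median of 0.01. Gene ends in general leaned the same way: over 16652 gene-end peaks of protein-coding genes, 39.6% were called lower and 6.49% higher, with a median of -0.21.

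Peaks over gene starts were mostly strong, and about as often called lower as gene starts in general. A peak that contained a listed start, called a 5′ peak here, was found for 65 genes (63 peaks), with its centre a median of 78 bp upstream of the start (-78 bp). The mean ranged from 7.81 CPM at RPL19 to 67.9 CPM at RPL15. Of the 63 peaks, 25 were called lower, 8 higher and 30 were not called, with a median of -0.15. Over all 11107 protein-coding 5′ peaks, 43.6% were called lower and 6.54% higher, and the median was -0.20, so the share lower at ribosomal protein starts was near that background. Of the 49 in the strongest 10% of all peaks by mean CPM, 19 were lower and 6 higher, beside 48.5% and 5.30%.

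That split of 5′ peaks depended on the scaling. With TMM factors computed from gene-end peaks alone, 12 were called lower and 19 higher, and with an offset that follows peak strength (loess) 14 were lower and 18 higher. The first of these shifts the median of all tested peaks from 0.01 to 0.20, so that its changes stand against a raised centre; the loess offset leaves it at -0.00895. The median over ribosomal protein 5′ peaks was 0.04 and 0.01 under them. Of all 129487 tested peaks, 43310 and 34940 were called in either direction, against 37717 with the main scaling. Shares of protein-coding 5′ peaks lower or higher under these scalings are not given here. How far the counts of 5′ peaks stand from that background is therefore not known.

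**Figure D1:**
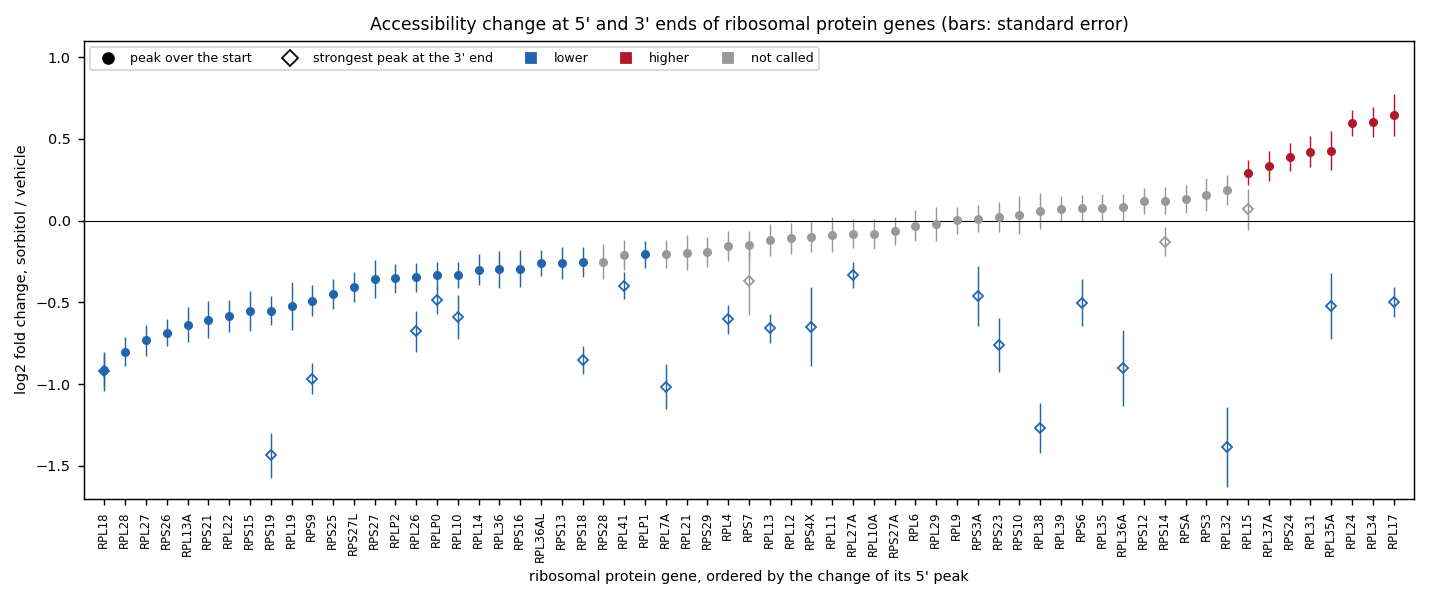
Log2 fold change (sorbitol over vehicle, y axis) of the peak over the start (circles) and of the strongest peak at the 3′ end (diamonds) of each ribosomal protein gene (x axis, ordered by the change of the 5′ peak); bars are standard errors and colour gives the call. Circles run from -0.91 at RPL18 to 0.65 at RPL17, and every diamond lies below the circle of its gene, though at RPL18 the symbols nearly coincide.

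The largest falls over starts were at large-subunit genes on chromosome 19. RPL18 had 33.87, 34.10, 29.87 and 27.37 CPM in vehicle libraries 1 to 4 and 19.41, 16.79, 15.74 and 14.64 CPM after sorbitol. Every sorbitol library lay below every vehicle library, and the log2 fold change was -0.91 ± 0.10 (SE, adjusted p = 3.02e-10, edgeR). This peak, chr19:48618946-48619720, also lies at an end of SPHK2, which encodes a sphingosine kinase. RPL28 fell from 50.47, 53.92, 47.51 and 41.66 CPM to 30.91, 28.45, 24.77 and 26.94 CPM, again with no overlap (-0.80 ± 0.09, adjusted p = 7.09e-10). Its peak is shared with an end of TMEM238.

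Among the other falls, RPL27 on chromosome 17 went from 37.5 ± 4.38 to 22.6 ± 2.72 CPM (SD, n = 4; log2 fold change -0.73). RPS26 lies at the mRNA exit channel of the small subunit. Its 5′ peak had 56.18, 64.70, 56.28 and 52.75 CPM with vehicle and 35.82, 35.29, 33.14 and 38.55 CPM after sorbitol. The groups did not overlap, and the log2 fold change was -0.69 ± 0.08 (adjusted p = 7.44e-09). The gene-end peak of RPS19BP1 (-0.61), whose strand is not listed, fell as well.

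The stalk proteins RPLP0, RPLP1 and RPLP2 form the lateral arm of the large subunit that recruits translation factors. RPLP0 went from 40.88, 42.11, 40.14 and 37.01 CPM to 32.66, 30.09, 32.48 and 31.82 CPM, with the groups apart (-0.33 ± 0.08, adjusted p = 0.00171). RPLP2 fell similarly, from 30.4 ± 1.15 to 23.8 ± 1.58 CPM (-0.35). RPLP1 was at the threshold, at 46.3 ± 2.37 and 40.2 ± 2.37 CPM (-0.21, adjusted p = 0.0479). Under the gene-end scaling the adjusted p was 0.0931 for RPLP2, 0.12 for RPLP0 and 0.887 for RPLP1. With the loess offset it was 0.0931 for RPLP0 and 0.858 for RPLP1. The RPLP1 call was lost in 12 of 18 alternatives, among them library totals alone (adjusted p = 0.221) and 6 of the 8 fits that each lacked 1 library.

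The 8 genes whose 5′ peak was called higher were RPL15, RPL17, RPL24, RPL31, RPL34, RPL35A, RPL37A and RPS24, with log2 fold changes from 0.29 to 0.65. None lies on chromosome 19, and RPS24 is the only gene of the small subunit among them. RPL24, a late-joining protein at the subunit interface, had 38.64, 39.58, 38.85 and 35.44 CPM with vehicle and 54.23, 55.35, 60.77 and 60.68 CPM after sorbitol. All 4 sorbitol libraries lay above all vehicle libraries (0.60 ± 0.08, adjusted p = 8.66e-08). RPL34 rose from 20.20, 18.74, 18.57 and 17.10 CPM to 27.57, 26.67, 28.46 and 30.58 CPM (0.60 ± 0.09, adjusted p = 1.2e-06), also without overlap.

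RPL31, next to the exit of the peptide tunnel, had 20.20, 19.40, 21.15 and 17.86 CPM with vehicle and 30.07, 24.41, 23.52 and 27.42 CPM after sorbitol (0.42 ± 0.10, adjusted p = 0.000584). RPS24 (0.39), RPL37A (0.33) and RPL15 (0.29) also had all sorbitol libraries above all vehicle libraries. RPL15 had the strongest 5′ peak, at 61.0 ± 2.38 and 74.8 ± 3.12 CPM. RPL5, which binds 5S ribosomal RNA, was called higher too (0.23, adjusted p = 0.0297), but its strand is not listed, its peak is shared with DIPK1A and its groups overlapped. Counting peaks without overlap between groups in CPM, whether called or not, 24 of the 63 were lower and 9 higher, against 41.1% and 5.90% of protein-coding 5′ peaks.

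**Figure D2:**
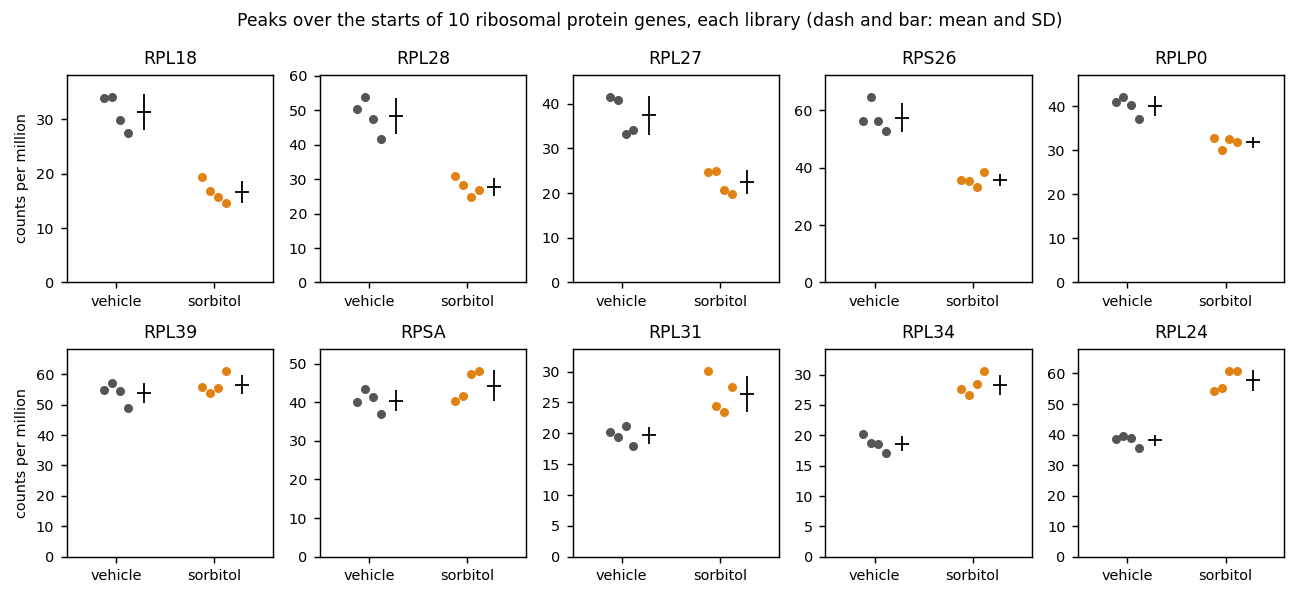
CPM (y axis, from 0) in each vehicle and sorbitol library at the 5′ peaks of 10 genes; each point is a library, and the dash and bar beside it are the mean and SD of 4. Sorbitol points lie below all vehicle points at RPL18, RPL28, RPL27, RPS26 and RPLP0, overlap them at RPL39 and RPSA, and lie above them at RPL31, RPL34 and RPL24.

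Strong peaks of the family were also found among those not called. RPL7 had the highest mean of all gene-end peaks at these loci, 95.6 ± 5.62 CPM with vehicle and 97.8 ± 8.48 CPM after sorbitol (0.03 ± 0.08, adjusted p = 0.791); the peak is shared with RDH10. RPL39, a very small protein that lines the peptide exit tunnel, had 54.76, 57.05, 54.43 and 48.98 CPM against 55.82, 53.87, 55.49 and 61.02 CPM (0.07, adjusted p = 0.539). The groups overlapped at both of these genes.

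RPSA, which is both a small-subunit protein and the laminin receptor precursor, had 40.06, 43.37, 41.32 and 36.88 CPM with vehicle and 40.40, 41.51, 47.29 and 48.04 CPM after sorbitol. Those groups overlapped (0.13 ± 0.08, adjusted p = 0.243). Under the gene-end scaling RPSA (0.32), RPL39 (0.26) and RPL7 (0.22) were called higher. With the loess offset all of them were called higher too, at 0.316, 0.27 and 0.252. RPSA was also called higher with library totals alone (adjusted p = 0.0294, edgeR) and with a minimum mean of 50 counts (adjusted p = 0.0217, edgeR).

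The 5′ peaks split by chromosome. On chromosome 19, 8 of 9 were called lower and none higher (also none at an unadjusted p under 0.05 by edgeR, or by DESeq2), with a median of -0.55. All protein-coding 5′ peaks of that chromosome gave the same median, -0.55, with 76.3% called lower and 2.53% higher. On the other chromosomes 17 of 54 were lower and 8 higher, with a median of -0.08, beside 41.3% and 6.83% and a median of -0.18 for all protein-coding 5′ peaks there. The 25 small-subunit 5′ peaks had 11 lower and 1 higher (median -0.19), and the 38 of the large subunit had 14 lower and 7 higher (median -0.11). Starts of snoRNA hosts had 5 of 18 lower and 1 higher (median -0.11), and those of genes without a snoRNA had 20 of 45 lower and 7 higher (-0.19). Peaks shared with an end of another protein-coding gene had 8 of 20 lower and none higher (again none at an unadjusted p under 0.05 or by DESeq2), and unshared peaks 17 of 43 lower and 8 higher. Shares of all protein-coding 5′ peaks split by snoRNA or by sharing are not given here. The counts by subunit, snoRNA and sharing therefore have no background of their own, and differences between them were not tested.

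Promoter sequence was described over the 300 bases from 250 before to 50 from the start, with motifs counted on both strands. CCGGAAG was found in 21 of 66 ribosomal protein promoters (31.8%) and in 14.2% of all protein-coding promoters. AAGATGGC, the core of the YY1 site, was found in 6 (9.09%) against 3.91%. GGGCGG, the box of SP factors, was found in 36 (54.5%) against 58.5%, and TATAAA in 5 (7.58%) against 9.63%. Median GC content was 59.0% against 62.7%. A match is a string of letters and was not tested as a bound site.

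By call, CCGGAAG was in 9 of 25 promoters under lower peaks, 10 of 30 under uncalled peaks and 2 of 8 under higher peaks. A C/T run of at least 5 bases over the start was in 19 of 25, 19 of 30 and 6 of 8. The median GC content was 60.7%, 60.0% and 52.5%. Across the 63 peaks the log2 fold change had a Spearman correlation of -0.35 with promoter GC content, -0.259 over the 54 peaks off chromosome 19, and 0.075 over 11175 protein-coding gene starts; these points share the same 8 libraries and their base composition, and genes are not independent replicates.

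Peaks at the other end of the genes fell nearly throughout. A 3′ peak lies within 1 kb of the gene's 3′ end and more than 1 kb from its start; this definition of 5′ and 3′ peaks was set after seeing the data. There were 27 such peaks at 24 genes. By edgeR's test 24 were called lower, none was called higher and 3 were not called, and the median log2 fold change was -0.66. None of the 27 was higher at an unadjusted p under 0.05 or by DESeq2. With TMM factors from gene-end peaks 19 were called lower, with the loess offset 23, and none higher under either. The protein-coding shares that follow are from the main scaling, and those under the other scalings are not given here. Over 2555 protein-coding 3′ peaks, 38.0% were called lower and 6.34% higher, and the median was -0.28. In CPM without overlap between groups, 22 of the 27 were lower and none higher, against 35.7% and 5.79%.

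RPS19, whose loss of function causes Diamond-Blackfan anaemia, had the largest fall at a 3′ end. Its 3′ peak, chr19:41872889-41873569, had 12.45, 13.67, 13.67 and 10.54 CPM with vehicle and 4.83, 4.59, 4.10 and 5.08 CPM after sorbitol (-1.43 ± 0.14, adjusted p = 1.22e-11, edgeR). The groups were far apart, while the 5′ peak of the gene fell less, from 33.87, 34.64, 35.34 and 29.21 CPM to 24.49, 22.54, 22.43 and 21.51 CPM (-0.55).

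RPL38, whose partial loss causes skeletal patterning defects in mice, showed the contrast more sharply. Its 5′ peak had 12.65, 13.86, 11.87 and 12.52 CPM with vehicle and 15.16, 13.45, 12.22 and 12.23 CPM after sorbitol, overlapping groups with a log2 fold change of 0.06. Its 3′ peak, chr17:74211503-74212080, had 9.73, 8.98, 9.23 and 8.82 CPM and then 4.66, 3.96, 3.52 and 3.16 CPM (-1.27 ± 0.15, adjusted p = 5.4e-09). A weaker 3′ peak of the same gene fell too (-0.92).

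RPL32 had 3.13, 3.49, 3.77 and 3.42 CPM at its 3′ end with vehicle and 0.67, 1.40, 1.67 and 1.51 CPM after sorbitol (-1.38 ± 0.25, adjusted p = 2.12e-05), while its 5′ peak was at 0.19 and not called. This is a weak peak with the groups nonetheless apart. At RPL17 the ends moved in opposite directions. The 5′ peak rose from 7.48, 8.68, 7.12 and 6.57 CPM to 13.08, 11.35, 10.96 and 11.41 CPM (0.65 ± 0.13, adjusted p = 9.02e-05). The 3′ peak, which is shared with C18orf32, fell from 26.60, 32.47, 28.53 and 29.35 CPM to 19.99, 22.31, 18.58 and 21.78 CPM (-0.50 ± 0.09, adjusted p = 4.08e-05). RPL35A did likewise, with 0.43 at the start and -0.52 at the 3′ end (adjusted p = 0.0469).

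Strong 3′ peaks fell as well. RPS9, a small-subunit protein needed early in assembly, had 33.19, 32.11, 32.86 and 27.64 CPM at its 3′ end with vehicle and 17.99, 14.38, 15.48 and 16.56 CPM after sorbitol (-0.97 ± 0.10, adjusted p = 2.71e-11), with the groups apart. The 3′ peaks of RPS18 (-0.85), RPL13 (-0.66) and RPL4 (-0.60) each had a vehicle mean above 30 CPM, at 42.2 ± 2.47, 47.9 ± 5.62 and 32.2 ± 1.38 CPM. The RPS18 peak also lies at ends of B3GALT4 and WDR46, and the RPL4 peak at an end of SNAPC5. Falls were smaller at RPL41 (-0.40, vehicle mean 51.5 CPM, also at an end of ZC3H10) and RPL27A (-0.33, 52.6 CPM). The uncalled 3′ peaks were those of RPL15 (0.07, adjusted p = 0.735), RPS7 (-0.37, adjusted p = 0.193) and the stronger of the pair at RPS14 (-0.13, adjusted p = 0.31). The weaker RPS14 peak fell (-1.38 ± 0.23, adjusted p = 6.57e-06).

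Neighbouring genes and peak strength were set beside this result. Of the 27 peaks, 11 also lay within 1 kb of an end of another protein-coding gene, and all 11 were called lower (median -0.60), where 61.0% of such protein-coding peaks were lower and 2.82% higher (median -0.41). Of the 16 without another end, 13 were lower (median -0.71), beside 27.2% lower and 7.99% higher, with a median of -0.18. Among 3′ peaks with a mean below 10 CPM, 14 of 16 were lower (median -0.83), beside 25.8% lower and 7.51% higher, with a median of -0.20. Off chromosome 19, 21 of 24 were lower (median -0.63). The share of protein-coding 3′ peaks lower off that chromosome is not given here, so this count has no background beside it.

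The ratio of the 3′ to the 5′ peak within each library does not depend on a single scaling factor per library. An offset that follows peak strength, such as loess, can change it where the peaks differ in strength, and was not applied to it. At RPL36A, for example, the means were 40.23 CPM at the start and 2.483 CPM at the 3′ end. The ratio was formed for the 24 genes with both peaks, using the stronger peak where there were several. This test was also chosen after seeing the data. The mean log2 ratio was lower after sorbitol at all 24 genes, with a median difference of -0.51 and a range from -1.66 at RPL32 to -0.0048 at RPL18. At 15 genes every sorbitol library had a lower ratio than every vehicle library. Each of these had an exact two-sided permutation p of 0.0286, the smallest that 4 against 4 libraries allow, and 0.119 after Benjamini-Hochberg adjustment over all 1869 protein-coding genes with both peaks. Over those 1869 genes the ratio was lower at 54.9%, with a median of -0.0505; groups were apart and lower at 14.0% and apart and higher at 10.1%.

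The ratio at RPL38 was -0.47 ± 0.12 (SD, n = 4) with vehicle and -1.80 ± 0.11 after sorbitol. At RPS19 it was -1.41 ± 0.06 and -2.29 ± 0.16, and at RPS6, the classical target of S6 kinase, -2.27 ± 0.09 and -2.86 ± 0.20. The groups overlapped at RPL10, RPL15, RPL18, RPL26, RPL27A, RPL41, RPLP0, RPS4X and RPS7. Restricted to the 13 genes whose 3′ peak is not at an end of another protein-coding gene, the ratio was lower at 13, with a median of -0.53.

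**Figure D3:**
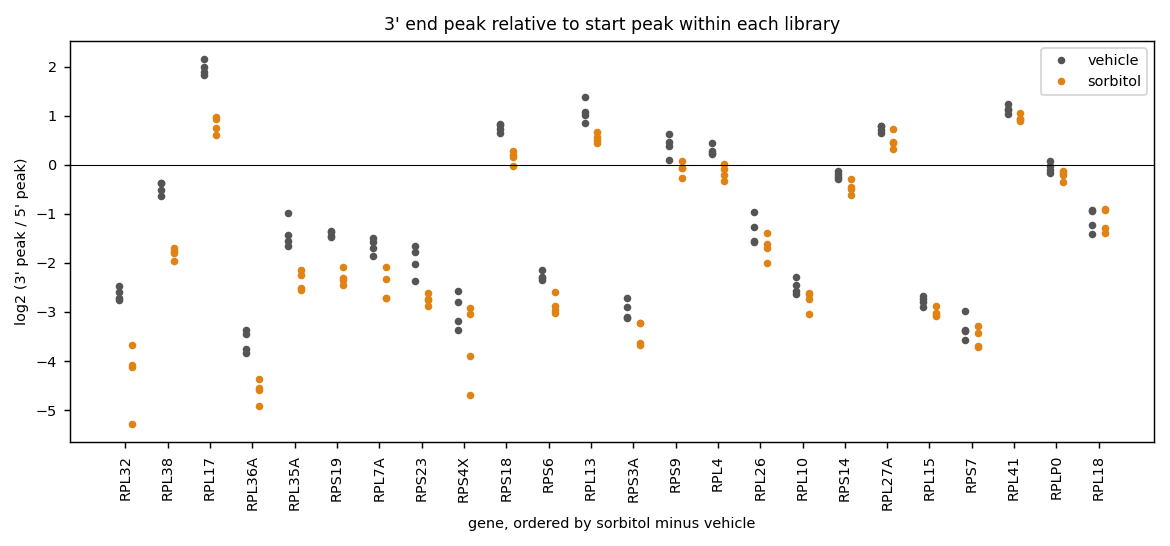
Log2 ratio of the 3′ peak to the 5′ peak (y axis) in each library for the 24 genes with both (x axis, ordered by sorbitol minus vehicle); grey points are vehicle and orange points sorbitol libraries. Sorbitol points lie below all vehicle points at 15 genes, by most at RPL32, and the colours coincide at RPL18.

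Summed over the family, the share of a library's counts in the 63 5′ peaks was 0.181%, 0.185%, 0.177% and 0.171% with vehicle and 0.176%, 0.174%, 0.170% and 0.179% after sorbitol, and the groups overlapped. The share in the 27 3′ peaks was 0.0472%, 0.0468%, 0.0478% and 0.0451% with vehicle and 0.0323%, 0.0335%, 0.0325% and 0.0333% after sorbitol, with a clear gap between the groups. Vehicle 4 and sorbitol 4 stood apart from their groups in the level of 477 peaks on unplaced contigs, whose median log2 deviation was 0.35 and -0.32. Leaving out each library in turn left 21 to 24 of the 27 3′ peaks called lower and 19 to 28 of the 63 5′ peaks.

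Peaks inside the genes were fewer and weaker and also leaned lower. Of 39, 15 were called lower and 2 higher, with a median of -0.36, where peaks inside protein-coding genes had 9.30% lower and 18.9% higher and a median of 0.06. Leaving out the read-through genes, 11 of 25 were lower and 2 higher, with a median of -0.40. Of the 39, 6 lie at an end of another protein-coding gene, a position that this background leaves out, and 2 of those 6 were lower. RPS23, which lies at the decoding centre, had an inside peak of 4.22, 2.47, 5.16 and 3.63 CPM with vehicle and 2.00, 0.93, 1.17 and 0.89 CPM after sorbitol (-1.65 ± 0.26, adjusted p = 2.31e-06). An inside peak of RPS3, a protein of the mRNA entry channel, went from 2.39 ± 0.24 to 0.878 ± 0.22 CPM (-1.44). Both have means of a few CPM only, with the groups apart.

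Stronger inside peaks lay in RPS29 (59.5 ± 5.52 to 45.1 ± 3.11 CPM, -0.40), at an end of the RN7SL1 gene of the signal recognition particle RNA, and in the read-through gene RPS10-NUDT3, at an end of NUDT3 (29.5 ± 0.98 to 20.5 ± 2.2 CPM, -0.53) and farther along (7.72 ± 1.2 to 2.86 ± 0.50 CPM, -1.44). RPL3L, the form of RPL3 used in heart and skeletal muscle, had an inside peak called higher, from 1.29, 1.21, 1.19 and 2.05 CPM to 2.50, 2.41, 2.09 and 3.02 CPM (0.82 ± 0.26, adjusted p = 0.0129). Without sorbitol 4 its adjusted p was 0.0639, and no inside peak was then called higher.

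In the flanks, 179 of 455 peaks were called lower and 34 higher, with a median of -0.28, beside 14.6% lower and 12.9% higher among flank peaks of protein-coding genes. Of these, 144 lie at an end of another protein-coding gene; 85 of the 144 were lower and 8 higher (median -0.38), beside 39.6% and 6.49% for gene ends in general. Of the 311 away from any such end, 94 were lower and 26 higher (median -0.24), beside 10.8% and 17.2% (median 0.03) for all such peaks within 30 kb of a gene. On chromosome 19, 33 of 55 of them were lower and 3 higher (median -0.51, beside 40.2%, 3.93% and -0.41). On the other chromosomes 61 of 256 were lower and 23 higher (median -0.18, beside 9.97%, 17.6% and 0.04).

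The shares called lower were also read by distance, at the 311 flank peaks away from gene ends. The flank peaks were binned by distance to the nearest ribosomal protein gene, and another gene may lie closer. The background is all peaks away from protein-coding ends, binned by distance to the nearest protein-coding gene that they lie outside. The distances therefore differ in kind, most in the far bins. This background was added after seeing the data. From 1 to 5 kb, 38 of 67 flank peaks were lower and 1 higher (median -0.51), beside 24.1% and 9.66% (median -0.16). From 5 to 10 kb, 16 of 53 were lower and 1 higher (-0.25), beside 17.6% and 12.2% (-0.08). From 10 to 20 kb, 20 of 100 were lower and 8 higher (-0.14), beside 14.2% and 13.5% (-0.05). From 20 to 30 kb, 20 of 91 were lower and 16 higher (-0.13), beside 12.1% and 14.6% (-0.02). The share lower thus declined with distance from 1 to 20 kb at these loci and over the whole range around genes in general; the difference between the 2 declines was not tested.

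Across 45 genes with at least 3 flank peaks away from gene ends, the change of the 5′ peak and the median change of those flank peaks had a Spearman correlation of 0.344, which describes genes measured in the same libraries. The median over genes was -0.43 where the 5′ peak was lower (16 genes), -0.29 where it was not called (24 genes) and 0.08 where it was higher (5 genes). These values include chromosome 19, where starts and flanks both fell in general. Its genes RPL13A, RPL18, RPL36, RPS15 and RPS9 are in the lower group, with flank medians from -0.693 to -0.437. RPS28 (-0.409) is in the uncalled group. Medians without that chromosome are not given here, so the contrast may come from it.

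**Figure D4:**
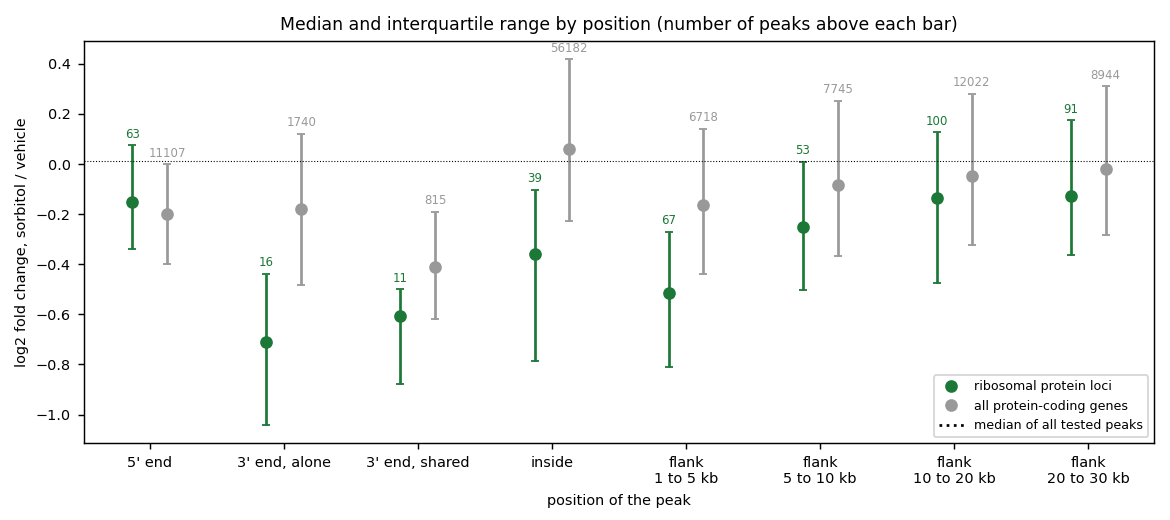
Median (points) and interquartile range (bars) of the log2 fold change (y axis) by position of the peak (x axis), for ribosomal protein loci in green and all protein-coding genes in grey, with flank peaks away from gene ends only; the number of peaks stands above each bar and the dotted line is the median of all tested peaks. The green median is -0.15 at the 5′ end, -0.71 and -0.60 at unshared and shared 3′ ends, and goes from -0.51 nearest the gene to -0.13 farthest in the flanks, where the grey median goes from -0.16 to -0.02.

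Strong falls lay in the flanks near RPSA, RPL29 and RPL8, 1794 to 2641 bp from the gene. The peak 2641 bp from RPSA had 26.12, 26.81, 28.48 and 26.07 CPM with vehicle and 11.41, 10.65, 13.48 and 10.24 CPM after sorbitol (-1.24 ± 0.10, adjusted p = 8.07e-14, edgeR). The groups were far apart, although the peak over the start of RPSA itself was not called.

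The peaks by RPL29 (-1.18) and RPL8 (-0.85, at an end of ZNF34) fell as well, as did one farther from RPS2 (-0.87, at the ends of GFER and TBL3). Rises were found at weaker peaks: a pair in the flank of RPL13 at 1.82 ± 0.40 to 4.75 ± 0.84 CPM (1.38) and 3.52 ± 0.99 to 7.06 ± 1.34 CPM (1.01, inside CPNE7), one by RPS12 (1.45) and one by RPL10A inside TEAD3 (0.938 ± 0.14 to 2.87 ± 0.35 CPM, 1.61). TEAD3 is a DNA-binding partner of YAP.

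Other genes of the translation apparatus are given beside the family; the lists were written from general knowledge. At mitochondrial ribosomal proteins, 48 of 70 5′ peaks were called lower and 1 higher (median -0.34), and 4 of 10 3′ peaks were lower. Translation factors had 15 of 29 5′ peaks lower and none higher by edgeR (1 at an unadjusted p under 0.05, none by DESeq2; median -0.28), and 10 of 11 3′ peaks lower. Ribosome biogenesis factors had 13 of 24 lower and 1 higher (-0.29), and 6 of 8 3′ peaks lower. All these counts read against the 43.6% lower and 6.54% higher of protein-coding 5′ peaks and the 38.0% lower of 3′ peaks, and no difference between the lists was tested.

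**Figure D5:**
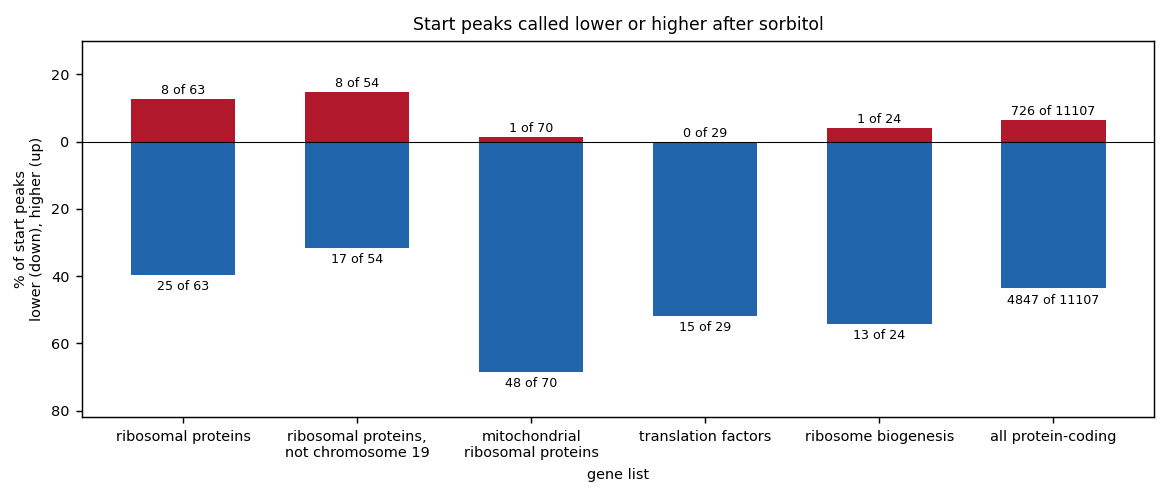
Share of 5′ peaks called lower (bars down) and higher (bars up), in percent of the peaks of each list (x axis), with the counts written at the bars. Ribosomal protein starts had 25 of 63 lower and 8 of 63 higher, mitochondrial ribosomal protein starts 48 of 70 lower and 1 of 70 higher.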

How the data were processed

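Omni-ATAC-seq peaks were compared between 4 vehicle and 4 sorbitol libraries. The authors deposited raw counts per shared peak; per the submitters' processing notes, tools included BWA 0.7.17 and MACS2 2.2.9.1 with build GRCh38, and how peaks were merged, and whether reads or fragments were counted, is not given in the sources used here. Totals of 11522266 to 19831471 counts per library keep counting error small at strong peaks. PCR duplicates are not independent molecules.

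Peaks were assigned to RefSeq genes in the order gene end (1 kb), inside, flank (30 kb). R 4.3.3 with edgeR 4.0.16 fitted all peaks that passed filterByExpr (minimum count 10, minimum total 15; 49 removed), with TMM factors, a quasi-likelihood test on treatment alone and Benjamini-Hochberg adjustment over all tested peaks. The members, lists and tests were chosen with earlier results of these data known.

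Each gene was represented by its strongest gene-end peak. Named are the 12 lower and 6 higher with the smallest p, the 4 strongest, the 2 strongest uncalled, the stalk genes and RPSA, and up to 5 inside and flank peaks in each direction without overlap of the groups; genes named for their 3′ end or ratio, and RPL5, were chosen after their values were seen. Some items that the rule would name are not reported here. Ratios used exact permutation tests (scipy 1.17.1).

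Alternatives were DESeq2 1.42.0 (test and size factors), library totals, TMM factors from gene-end peaks, a loess offset, other filters, windows and flanks, blocks, summed libraries and leaving out each library. Replicate numbers do not pair the libraries. On simulated counts for 129449 peaks, edgeR recovered 23 of 100 changed 1.5-fold and 66 of 100 changed 2-fold, with 5 false calls. No other peaks were changed there, while 29.1% of tested peaks were called in the data. The adjusted threshold was thus stricter in the simulation, and the recovered shares do not carry over to the data.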

Additional observations from a re-analysis of the deposited data

Results flagged for a closer look

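Over the named peaks, 74 groups of 4 libraries were examined for a library far from its group, and 2 were found, where chance alone gives about 1 in 20, or 3.7. The inside peak of RPS3 on chromosome 11 had 0.544 CPM in sorbitol 2, against 0.962 to 1.00 CPM in the other sorbitol libraries. The inside peak of RPL3L on chromosome 16 had 2.05 CPM in vehicle 4, against 1.19 to 1.29 CPM in the other vehicle libraries. Vehicle 4 also has the highest level of peaks on unplaced contigs of the 8 libraries (median log2 deviation 0.35), and its part in this value was not tested.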

How the results depend on the processing

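Directions held under the alternatives run except where given here; the cause of each change was not tested, apart from sets that are smaller by construction. With library totals alone, medians of the log2 fold change were -0.218 at gene ends, -0.275 inside, -0.194 in flanks, -0.0681 at 5′ and -0.576 at 3′ ends. With TMM factors from gene-end peaks they were -0.113, -0.167, -0.0888, 0.0375 and -0.471. There, 24 gene-end, 4 inside and 59 flank peaks were higher, 119 flank peaks were lower, and 5′ peaks had 12 lower and 19 higher. With the loess offset medians were -0.162 at gene ends, -0.246 in flanks, 0.0137 at 5′ and -0.608 at 3′ ends, with 22 gene-end peaks higher, and 14 of the 5′ peaks lower and 18 higher. The 5′ median thus changed sign under both. Shares of protein-coding peaks lower or higher under the alternatives are not given here, so these counts have no background beside them. A minimum mean of 50 counts left 21406 peaks called in all, 5 inside peaks lower and 1 higher, 15 flank peaks higher, and medians of -0.181 at gene ends, -0.126 inside, -0.0705 at 5′ and -0.526 at 3′ ends. The DESeq2 Wald test called 1 inside peak higher. Without peaks shared with another gene, 40 gene-end and 13 3′ peaks were lower, with a 3′ median of -0.71. A 500 bp window gave a gene-end median of -0.228, a 10 kb flank 86 lower and 4 higher peaks with a median of -0.4, and leaving out read-through genes an inside median of -0.4.

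The replicate numbers do not pair the libraries (correlations of deviations from -0.133 to 0.00671). With the replicate block 34444 peaks were called in all, 59 gene-end peaks lower and 8 higher, 22 5′ peaks lower and 8 higher, and 21 3′ peaks lower; of the named peaks only RPLP1 lost its call (adjusted p = 0.0731, edgeR).

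Over the fits that each lacked 1 library, 30555 to 38658 peaks were called, with gene-end medians of -0.346 to -0.276, inside medians of -0.391 to -0.314 and 3′ medians of -0.724 to -0.61. Higher inside peaks numbered 0 to 2: 0 without sorbitol 4 (DESeq2 over all libraries called 1), and 1 without sorbitol 2 or vehicle 1, 2 or 3. The 3′ to 5′ ratio was lower at 23 to 24 of 24 genes. RPL7 ran from -0.027 (without sorbitol 4) to 0.076. Of 37 named peaks, 30 kept direction and call in up to 18 alternatives. At a simulated 1.5-fold change 23 of 100 peaks were recovered, and 66 of 100 at 2-fold, without a split by peak strength. The simulation changed a far smaller share of peaks than was called in the data, so these shares do not carry over.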
